A study of Mus musculus with 8 samples.

Results

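The laminins, their integrin receptors and the dystroglycan complex were measured in sciatic nerves of mice at postnatal day 6. The set holds 41 genes, chosen by symbol from the 55487 genes of the count table, and 40 of them had enough counts to be tested. RNA was sequenced from polyadenylated transcripts of whole nerve in 8 libraries. The 4 control libraries (Ctrl) came from animals with unmodified Cnp alleles and floxed Cdk7 alleles (CNP+/+ Cdk7lox/lox). The 4 conditional knockout libraries (CNP-Cdk7cKO) carried the same floxed Cdk7 alleles with Cre at 1 Cnp allele (CNPcre/+ Cdk7lox/lox). Cre is made where the Cnp locus is active, which in nerve is in Schwann cells, so the other cells of the nerve are meant to keep Cdk7. The knockout animals also have 1 altered Cnp allele, which the controls do not.

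Schwann cells lie on a sheet of extracellular matrix, the basal lamina, which they build themselves. Laminins are secreted as trimers of an alpha, a beta and a gamma chain, assemble into a network, and are tied to the rest of the sheet by nidogens and by the proteoglycans perlecan and agrin. On the cell surface laminin is bound by integrins, which are pairs of an alpha and a beta chain, and by dystroglycan, which is coupled inside the cell to dystrophin, utrophin or dystrophin-related protein 2 and, through the last, to periaxin. These contacts are known to be needed for sorting axons and for the shape of myelin segments.

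The libraries held between 16897242 (Ctrl 1) and 21527891 (Ctrl 3) estimated counts. Cdk7 measured 20.6 to 22.2 CPM (counts scaled to library size) in Ctrl and 9.62 to 12.7 CPM in CNP-Cdk7cKO. Summed expression of 8 Schwann cell markers, Prx included, was 105117 to 117555 CPM in Ctrl and 77030 to 85125 CPM in CNP-Cdk7cKO. Of the 8 markers 4 fell, and the median log2 fold change was -0.17. The sum of Prx and Itga6, both members and Schwann cell markers, was 7954 to 8960 CPM in Ctrl and 7985 to 8968 CPM in CNP-Cdk7cKO. The groups also differed in sex: Xist was present in Ctrl 1 and all CNP-Cdk7cKO libraries, and Ctrl 2 to 4 held Y-linked transcripts. Summed skeletal muscle markers ranged from 666.3 to 6562 CPM in Ctrl and from 128 to 812 CPM in CNP-Cdk7cKO, and 19 of the 20 fell. In bulk nerve fewer cells of a type and less RNA per cell cannot be told apart, and the labels do not state that each library is a separate animal, so p-values measure the spread between libraries.

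Among the members periaxin was by far the most abundant transcript per length. Prx, which encodes the scaffold that links dystrophin-related protein 2 to the cytoskeleton of myelinating Schwann cells, stood at 1375 ± 72.3 CPM per kb of merged exons in Ctrl (SD, n = 4). Perlecan (Hspg2) followed at 297 ± 7 and dystroglycan (Dag1) at 252 ± 20.4 CPM per kb. Of the integrin chains, Itgb1, the common partner of most alpha chains, came first at 151 ± 2.76 CPM per kb. Its level was close to those of the laminin chains Lamc1 (143 ± 2.97 CPM per kb) and Lamb1 (123 ± 3.65), and Lamb1 and Nid1 (122 ± 3.32) lay within each other's spread.

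The laminin alpha chains were each below Lamb1, Lamb2 and Lamc1 per length, while the gamma chain Lamc3 was low at 1.09 ± 0.143 CPM per kb. Lama4 stood at 41.6 ± 1.17 and Lama2, the alpha chain of the main Schwann cell laminin, at 33.9 ± 0.647 CPM per kb in Ctrl. Lama5 measured 4.22 ± 0.461 and Lama1 0.41 ± 0.035 CPM per kb. The laminin-binding alpha chain Itga6 (80.4 ± 2.22 CPM per kb) was the most abundant integrin alpha chain, with its partner Itgb4 at 43.6 ± 5.82 and Itga7 at 20.6 ± 1.82 CPM per kb. In the dystrophin family Drp2 led with 56.7 ± 4.86 CPM per kb, ahead of Utrn (31.9 ± 0.551) and Dmd (8.51 ± 0.387). Exon merging counts the exons of all annotated transcripts, so genes with many alternative exons, such as Dmd and Dtna, are set low on this scale. Itgb6 was the 1 member too low to test, at 0.0612 to 1.46 CPM in Ctrl and 0 to 0.29 CPM in CNP-Cdk7cKO.

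**Figure D1:**
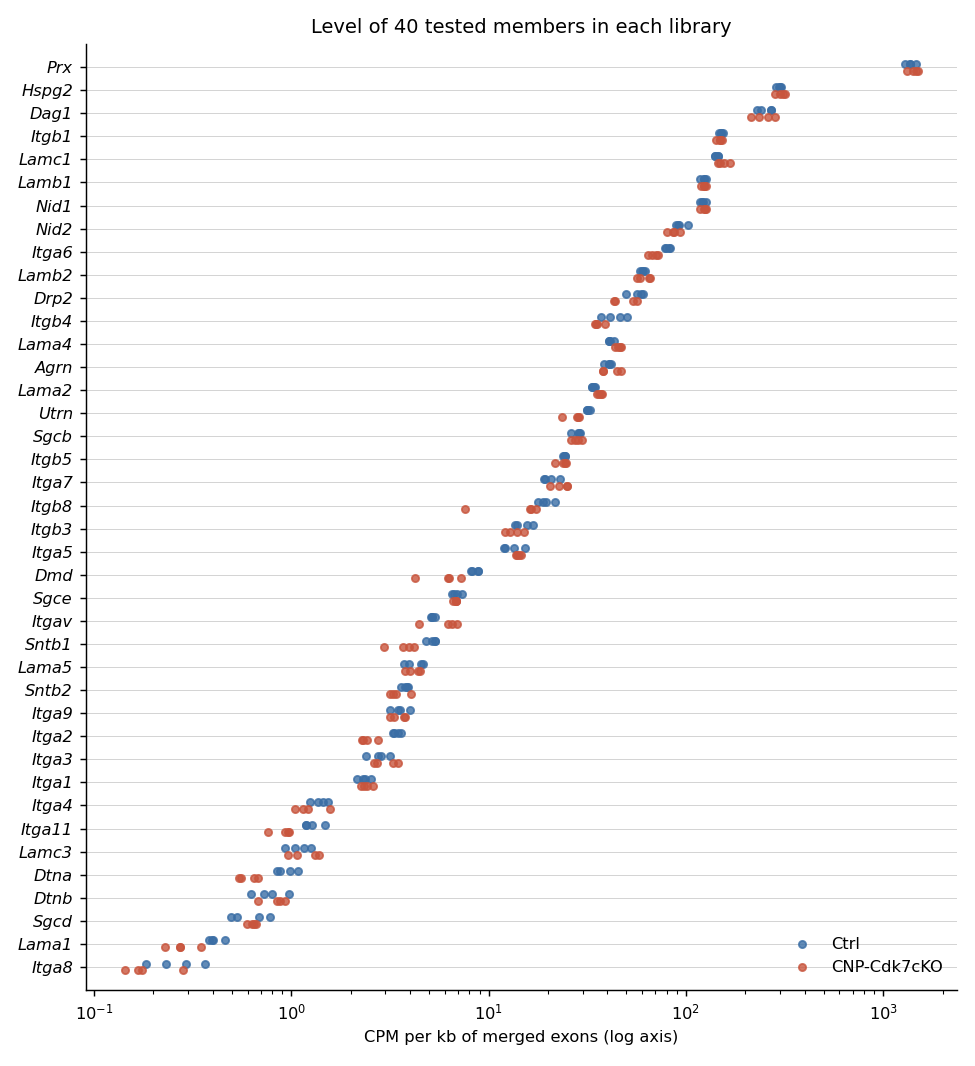
Level of each of the 40 tested members in every library, in CPM per kb of merged exons on a log axis, with Ctrl in blue and CNP-Cdk7cKO in red (n = 4 libraries each). Prx lies at 1375 CPM per kb in Ctrl, and the libraries of the 7 called genes, such as Itga2 and Dtna, separate by group.

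The comparison asked which of these genes changed in nerves whose Schwann cells had lost Cdk7. Of the 40 tested members, 7 fell and 0 rose. The falls were in 3 integrin alpha chains (Itga2, Itga6 and Itga11) and in 4 genes of the dystrophin complex (Dmd, Utrn, Dtna and Sntb1). Over all 15056 genes tested, 6.60% were called lower and 5.07% higher by the same test, edgeR's quasi-likelihood F test at a Benjamini-Hochberg adjusted p under 0.05. The median log2 fold change of the 40 members was -0.02, against 0.00 for all genes. At an unadjusted p under 0.05, 9 members were lower and 4 higher, against 2015 and 1919 of all 15056 genes. DESeq2 called 8 lower and 1 higher (1143 and 832 over all genes), and limma-voom called 8 and 3 (1003 and 898). Without Ctrl 2, 4 members fell.

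With the muscle markers as a covariate 1 member fell (Itga2), with Xist as a covariate 2 did (Itga2 and Itgb4), and among the female libraries alone, where Ctrl 1 alone stands for the controls and its spread is taken from the knockouts, 1 did (Itgb4). The 7 genes called in the full comparison kept a negative sign under all 18 alternatives. Their groups did not overlap, so leaving out libraries or changing the scaling, filter or tool could hardly turn the sign. Only the covariate fits could readily do so. With the muscle covariate the log2 fold changes of Dtna and Sntb1 shrank, to -0.39 and -0.37, and those of the other called members grew. With the Xist covariate those of Dtna and Itga11 shrank, to -0.52 and -0.41, Sntb1 stayed at -0.48, and the rest grew. The correlation with group was -0.781 for the muscle covariate and 0.774 for Xist. Sex and muscle content moved with genotype, and their part in the falls was not tested beyond these fits.

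**Figure D2:**
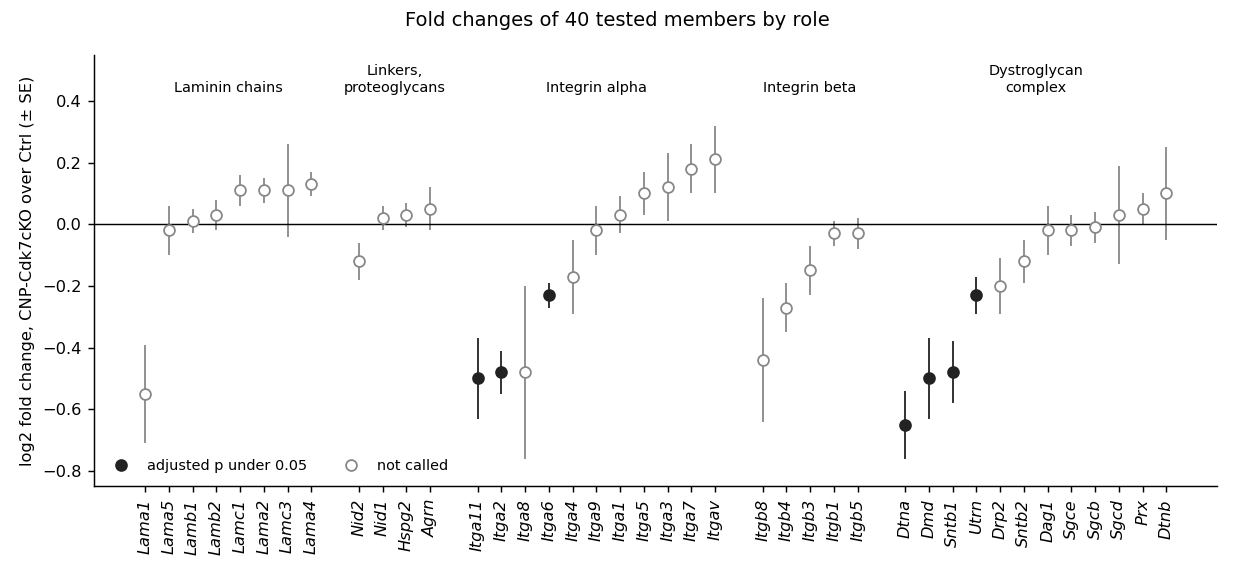
Log2 fold change of the 40 tested members, CNP-Cdk7cKO over Ctrl, with the standard error of the edgeR fit as bars and filled points for adjusted p under 0.05. The 7 filled points are integrin alpha chains and dystrophin complex genes, and they lie between -0.23 and -0.65.

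All 12 laminins, nidogens and proteoglycans were tested; 0 rose and 0 fell by edgeR, with a median log2 fold change of 0.03. At an unadjusted p under 0.05, 3 of them were higher and 1 lower; DESeq2 called 1 higher and limma-voom 3.

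Lama4, an alpha chain of vascular and endoneurial basal laminae, came closest among the abundant chains. It measured 523, 494, 494 and 497 CPM in Ctrl 1 to 4, then 561, 549, 529 and 563 CPM in CNP-Cdk7cKO 1 to 4. Every knockout library was above every control library, although the lowest, CNP-Cdk7cKO 3, was only just above Ctrl 1. The log2 fold change was 0.13 ± 0.04 (SE) with an adjusted p of 0.0504. Lama4 passed without Ctrl 1 (adjusted p = 0.0436) or CNP-Cdk7cKO 3 (adjusted p = 0.0462), and by DESeq2 and limma-voom (adjusted p = 0.0173 and 0.0242); over all alternatives its adjusted p ran up to 0.773, among the female libraries.

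Lama2, whose loss in mice and humans causes muscular dystrophy with neuropathy, had the same pattern at a smaller size. It measured 567, 545, 546 and 558 CPM in the controls and 612, 591, 576 and 606 CPM in the knockouts. The groups did not overlap, but 0.11 ± 0.04 on the log2 scale missed the threshold (adjusted p = 0.0918). Lamc1, the gamma chain shared by most laminins, measured 1161 to 1208 CPM in the controls and 1207 to 1387 CPM in the knockouts (log2 fold change 0.11 ± 0.05, adjusted p = 0.146), with the groups touching at CNP-Cdk7cKO 4.

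Lama1, an alpha chain mostly of embryonic basement membranes, went the other way at a low level. It measured 4.47, 3.83, 3.9 and 3.71 CPM in the controls and 3.36, 2.22, 2.64 and 2.65 CPM in the knockouts. All knockout libraries were below all controls, a log2 fold change of -0.55 ± 0.16 (adjusted p = 0.0518), which passed without CNP-Cdk7cKO 1 (adjusted p = 0.0366). Control counts behind it were 73 to 83 per library.

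The remaining chains differed by less than the spread between libraries. Lamb1, the beta chain of the main Schwann cell laminin, had group means of 1219 ± 36.2 and 1224 ± 29.6 CPM (SD, n = 4). Lamb2 measured 366.2 ± 8.08 and 374.4 ± 28.6 CPM, Lama5 48.02 ± 5.25 and 47.4 ± 3.76 CPM, and Lamc3 6.663 ± 0.872 and 7.229 ± 1.22 CPM. Of the linkers, Nid1 went from 846.3 ± 23.1 to 858.9 ± 25.1 CPM and Nid2 from 486 ± 28.9 to 447.5 ± 27.3 CPM (log2 fold change -0.12 ± 0.06, adjusted p = 0.204). The proteoglycan Hspg2 had means of 4253 ± 100 and 4337 ± 218 CPM, and Agrn 375.2 ± 13.7 and 389.3 ± 43.6 CPM.

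Of 11 integrin alpha chains 3 fell and 0 rose. Among the 3 collagen-binding alpha chains in the set, Itga2 and Itga11 fell and Itga1 did not pass. Of the laminin-binding chains, Itga6 fell, and Itga3 and Itga7 did not pass. None of the chains for fibronectin and related ligands (Itga4, Itga5, Itga8, Itga9 and Itgav) was called by edgeR, DESeq2 or limma-voom with all libraries; at an unadjusted p under 0.05, 3 integrin alpha chains in all were lower and 1, Itga7, was higher.

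The collagen receptor chain Itga2 (chr13:114833081-114932100, GRCm38) had the smallest adjusted p of the members. It measured 25.8, 23.6, 23.3 and 24.8 CPM in the controls and 17.2, 16.5, 19.7 and 16.2 CPM in the knockouts. The groups were well apart, with the highest knockout library below the lowest control. The log2 fold change was -0.48 ± 0.07 (adjusted p = 0.00231), and the call was kept in 17 of 18 alternatives, all except the female libraries alone (-0.57, adjusted p = 0.103). Itga11 (chr9:62677826-62783982), a collagen receptor chain of fibroblasts, measured 6.12, 6.52, 7.56 and 6.1 CPM in the controls and 4.97, 3.92, 4.94 and 4.76 CPM in the knockouts. These groups also did not overlap (log2 fold change -0.50 ± 0.13, adjusted p = 0.0284). The call was lost without any 1 of Ctrl 2, Ctrl 3 and CNP-Cdk7cKO 1, 2 and 4, with adjusted p between 0.0506 and 0.0891. Summed fibroblast markers, a list that includes collagen genes, were 39391 to 44778 CPM in the controls and 45194 to 51349 CPM in the knockouts. Of these 7 markers 2 rose, and the part of fibroblast content in the fall of Itga11 was not tested. Itga1 had means of 43.67 ± 3.04 and 44.66 ± 2.85 CPM.

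The bases just upstream of the collagen receptor genes Itga2 and Itga11 are shown because both fell. They come from RefSeq for GRCm38.p6, 5′ to 3′ on the gene's strand, and end just before the first annotated exon; Itga2 is chr13:114932101-114932350 (minus strand) and Itga11 chr9:62677605-62677825 (plus strand). Capitals would mark a match on either strand to a TEAD motif (GGAATG), a SOX motif (ACAAAG) or a GC box (GGGCGG), and neither stretch holds one.
Itga2: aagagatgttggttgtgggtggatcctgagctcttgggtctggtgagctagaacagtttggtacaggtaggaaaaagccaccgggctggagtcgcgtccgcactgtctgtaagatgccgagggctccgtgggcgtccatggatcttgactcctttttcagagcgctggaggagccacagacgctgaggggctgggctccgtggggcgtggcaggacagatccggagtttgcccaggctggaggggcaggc
Itga11: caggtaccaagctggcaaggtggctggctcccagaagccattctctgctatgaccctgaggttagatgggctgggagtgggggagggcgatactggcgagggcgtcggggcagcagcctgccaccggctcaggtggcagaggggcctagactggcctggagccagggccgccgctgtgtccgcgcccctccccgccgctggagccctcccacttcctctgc
Over the 32851 upstream stretches of 250 bases in the RefSeq table, 12.6% hold the TEAD letters, 16.5% the SOX letters and 32.7% the GC box. The base composition was 60.8% G and C upstream of Itga2 and 69.2% upstream of Itga11.

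Itga6 (chr2:71745616-71858416), the alpha chain that pairs with Itgb1 on immature and with Itgb4 on myelinating Schwann cells, fell by a modest amount in every library. It measured 746, 739, 704 and 714 CPM in the controls and 649, 605, 638 and 580 CPM in the knockouts. All 4 knockout libraries lay below all controls, with a log2 fold change of -0.23 ± 0.04 (adjusted p = 0.00751). The call held whichever library was left out, and ended with the muscle markers or Xist as a covariate at an equal or larger size (-0.27 in both, adjusted p = 0.102 and 0.0903).

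Its partner Itgb4, which perineurial cells also express, had a similar mean difference but a wide control group. It measured 351, 327, 288 and 259 CPM in the controls and 272, 247, 244 and 250 CPM in the knockouts. Ctrl 4, the control with most muscle transcripts, lay within the knockout range, and Ctrl 1, the female control, was highest. At -0.27 ± 0.08 on the log2 scale it missed the threshold (adjusted p = 0.0601). It passed without Ctrl 4 (-0.34, adjusted p = 0.0107), with Xist as a covariate (-0.48, adjusted p = 0.0452), among the female libraries (-0.47, adjusted p = 0.0474), without the count filter, and by DESeq2 and limma-voom (adjusted p = 0.0315, 0.0105 and 0.0495). Over all alternatives its adjusted p ran from 0.0105 to 0.156, the highest without Ctrl 2. Summed perineurial markers, a list that includes Itgb4, were 637.5 to 774.9 CPM in the controls and 587 to 699.2 CPM in the knockouts, and 0 of the 7 passed.

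Itgb1 showed no difference beyond the spread, with means of 615.2 ± 11.2 and 603.3 ± 17.8 CPM (log2 fold change -0.03 ± 0.04). Itga7, a laminin-binding chain that muscle also makes, measured 154 to 186 CPM in the controls and 165 to 203 CPM in the knockouts (log2 fold change 0.18 ± 0.08, adjusted p = 0.164). Itga3 measured 15.88 ± 1.85 and 17.25 ± 2.39 CPM, Itga5 65.11 ± 7.41 and 69.98 ± 1.81 CPM, and Itga9 27.25 ± 2.67 and 26.95 ± 2.41 CPM. Itga4 and Itga8 had log2 fold changes of -0.17 ± 0.12 and -0.48 ± 0.28, with adjusted p of 0.403 and 0.309.

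The alpha chain Itgav and its beta partner Itgb8, which together activate latent transforming growth factor beta, were both set apart by 1 library. Itgb8 measured 241, 209, 196 and 217 CPM in the controls and 179, 182, 192 and 84.1 CPM in the knockouts. The knockout libraries were all lower, but CNP-Cdk7cKO 4 stood far below the other three, and the log2 fold change was -0.44 ± 0.20 (adjusted p = 0.2), or -0.23 (adjusted p = 0.0548) without that library. Itgav measured 55.1 to 57.8 CPM in the controls and 74.1, 69.9, 66.7 and 47.9 CPM in the knockouts. Without CNP-Cdk7cKO 4, Itgav passed as higher (log2 fold change 0.32, adjusted p = 0.00404), against 0.21 (adjusted p = 0.263) with it. The other partners of Itgav, Itgb3 and Itgb5, had log2 fold changes of -0.15 ± 0.08 and -0.03 ± 0.05, and neither passed.

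**Figure D3:**
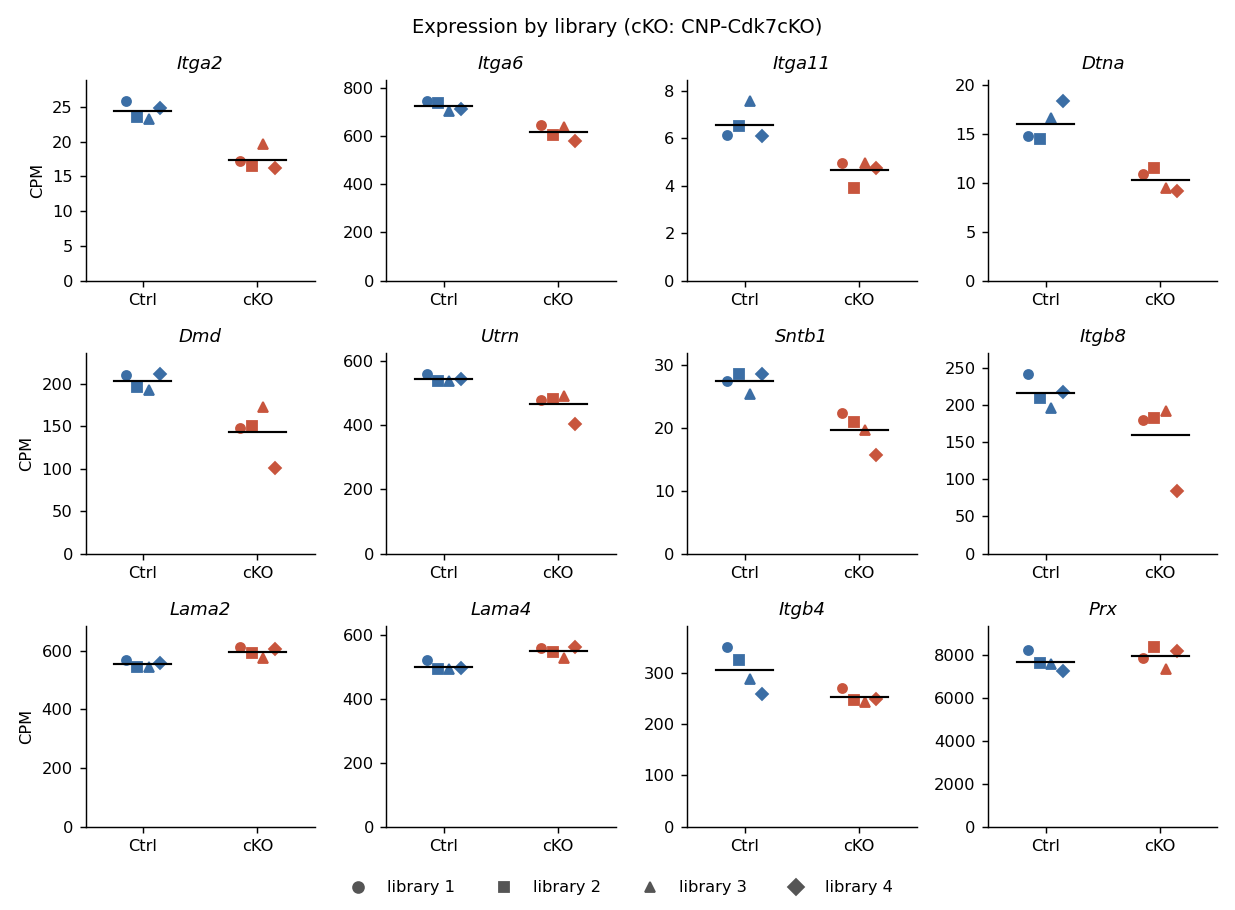
Expression in CPM of 12 members in each library, with a marker shape for each library number and a line at the group mean (4 libraries a group). The 7 called genes do not overlap between groups, and CNP-Cdk7cKO 4 (diamond) is lowest for Itgb8 at 84.1 CPM and for Dmd at 101 CPM.

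In the dystroglycan complex Dmd, Utrn, Dtna and Sntb1, for proteins on the inner side of the membrane, fell. Drp2, Dtnb and Sntb2, also of the inner side, did not pass. Dystroglycan itself and periaxin differed by less than their spread. Of 12 members 4 fell and 0 rose by edgeR, and DESeq2 and limma-voom each called 4 lower and 0 higher; at an unadjusted p under 0.05, 0 were higher and 4 lower. Dag1, which encodes both dystroglycan subunits, measured 1461, 1528, 1708 and 1719 CPM in the controls and 1808, 1650, 1499 and 1366 CPM in the knockouts. Both groups ran over a similar wide range (log2 fold change -0.02 ± 0.08, adjusted p = 0.904). Prx measured 8214, 7620, 7603 and 7240 CPM in the controls and 7877, 8364, 7347 and 8170 CPM in the knockouts, also with full overlap (0.05 ± 0.05, adjusted p = 0.56).

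Dtna, which encodes alpha-dystrobrevin, a dystrophin-binding scaffold, had the largest fold change among the called members (chr18:23415135-23659715). It measured 14.8, 14.4, 16.6 and 18.3 CPM in the controls and 10.9, 11.5, 9.43 and 9.18 CPM in the knockouts. No library overlapped between the groups, and the log2 fold change was -0.65 ± 0.11 (adjusted p = 0.00344). Muscle also makes Dtna, and its highest value was in Ctrl 4, which had most muscle transcripts. Ctrl 1, with summed muscle markers of 666.3 CPM, had more Dtna than CNP-Cdk7cKO 2, with 812 CPM. With the muscle markers as a covariate the log2 fold change was -0.39 and did not pass (adjusted p = 0.22). That covariate moved with genotype (correlation with group -0.781), and the part of muscle in the fall of Dtna was not tested. The libraries are stranded, but the strand setting of the counting is not given in the sources used here, and an antisense gene overlaps 90 exonic bases of Dtna. Antisense genes also overlap exons of Lama2 (631 bases), Itgb4 (537 bases), Itgav (634 bases), Prx (300 bases) and, over the longest stretch, Itga4 (1124 bases). Shorter antisense overlaps lie in Nid2 (437 bases, with Rtraf), Lamc3 (382 bases), Itga8 (372 bases), Nid1 (143 bases) and Itga7 (9 bases). A gene on the same strand shares 685 exonic bases with Itga1. The related Dtnb had means of 7.476 ± 1.4 and 7.964 ± 1.04 CPM.

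Dmd (chrX:82948870-85206141), the dystrophin gene, fell by a similar amount. It measured 210, 196, 193 and 211 CPM in the controls and 148, 150, 172 and 101 CPM in the knockouts. The controls were tight and all knockout libraries lay below them, CNP-Cdk7cKO 4 furthest (log2 fold change -0.50 ± 0.13, adjusted p = 0.0252). With the muscle markers or Xist as a covariate Dmd did not pass (log2 fold changes -0.54 and -0.56, adjusted p = 0.22 and 0.202). The call was lost without Ctrl 1, Ctrl 2 or CNP-Cdk7cKO 1 (adjusted p = 0.0559, 0.0558 and 0.0574), at log2 fold changes of -0.49 to -0.52.

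Dmd is transcribed from several starts, and Schwann cells are known for short dystrophin forms in place of the full-length muscle protein. The gene counts sum over all of them. The annotation holds a full-length transcript of 79 exons and 11034 coding bases. Its short coding transcripts have 18 exons and 1851 coding bases, and 17 exons and 1812 coding bases, from a shared start. The counts do not show which starts the nerve uses, and this short-form start need not be the one used in Schwann cells. The 250 bases upstream of the first annotated exon base of both these start regions are shown, and the fall cannot be assigned to any start. They come from RefSeq for GRCm38.p6 on the plus strand, at chrX:82948620-82948869 and chrX:85048045-85048294. The first annotated exon bases belong to non-coding transcripts, and the 79-exon and 18-exon transcripts themselves start further downstream, at 82948903 and 85048413. Capitals mark GC box letters, and neither stretch holds the TEAD or SOX letters.
Dmd, full-length start region: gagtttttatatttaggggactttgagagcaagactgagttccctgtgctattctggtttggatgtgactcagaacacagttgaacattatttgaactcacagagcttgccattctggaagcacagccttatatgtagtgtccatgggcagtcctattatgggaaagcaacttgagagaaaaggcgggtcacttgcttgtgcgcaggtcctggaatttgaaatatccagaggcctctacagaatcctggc
Dmd, short-form start region: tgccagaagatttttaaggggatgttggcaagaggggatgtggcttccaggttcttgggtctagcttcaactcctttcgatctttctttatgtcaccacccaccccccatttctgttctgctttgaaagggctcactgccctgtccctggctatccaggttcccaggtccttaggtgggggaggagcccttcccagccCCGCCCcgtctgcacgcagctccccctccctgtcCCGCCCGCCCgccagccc
The short-form stretch has 3 GC box matches, 2 of them overlapping, and 60% G and C, against no match and 45.2% in the full-length stretch.

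Utrn (chr10:12382188-12869365), which encodes utrophin, the dystrophin relative found at the outer surface of Schwann cells, fell less. It measured 559, 539, 539 and 544 CPM in the controls and 480, 483, 492 and 404 CPM in the knockouts. The groups were clearly apart, again with CNP-Cdk7cKO 4 lowest (log2 fold change -0.23 ± 0.06, adjusted p = 0.0282). This call was lost without any 1 of the 4 controls or CNP-Cdk7cKO 1, with adjusted p between 0.0517 and 0.067. Sntb1 (chr15:55636388-55906949), a syntrophin that binds dystrophin and dystrobrevin, measured 27.5, 28.6, 25.5 and 28.6 CPM in the controls and 22.4, 21, 19.7 and 15.7 CPM in the knockouts. It fell by 0.48 ± 0.10 on the log2 scale (adjusted p = 0.00909) without overlap, and passed whichever library was left out. The related Sntb2 had a log2 fold change of -0.12 ± 0.07 (adjusted p = 0.323).

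Drp2, the X-linked partner of periaxin in patches where the Schwann cell membrane touches its myelin, varied within both groups. It measured 509, 520, 483 and 427 CPM in the controls and 460, 484, 369 and 374 CPM in the knockouts. The groups overlapped, with CNP-Cdk7cKO 2 above Ctrl 3 and 4, and -0.20 ± 0.09 on the log2 scale missed the threshold (adjusted p = 0.2). The sarcoglycans, small membrane proteins of the complex, differed by less than the spread between libraries: Sgcb had means of 113.9 ± 5.32 and 113.1 ± 6.21 CPM, Sgce 72.97 ± 3.74 and 72 ± 1.31 CPM, and Sgcd 5.147 ± 1.1 and 5.236 ± 0.221 CPM.

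In all, 11 of the 40 tested members had groups that did not overlap, 9 lower and 2 higher in CNP-Cdk7cKO, where 9.51% and 9.34% of all tested genes did so. Besides the 7 called, these were Lama1 and Itgb8 (lower) and Lama2 and Lama4 (higher).

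Ratios between members do not depend on the scaling of libraries, and 4 ratios of partners or alternatives were compared. The ratio of Drp2 to Prx counts was 0.062, 0.0682, 0.0636 and 0.059 in Ctrl and 0.0584, 0.0578, 0.0502 and 0.0457 in CNP-Cdk7cKO. Each knockout library had less Drp2 per Prx than any control, by a log2 difference of -0.26 (two-sided exact permutation p = 0.0286, the lowest value possible here, and 0.0571 adjusted over 4 ratios). The ratio of Dmd to Utrn, the dystrophin relatives that share dystroglycan as a partner, was 0.376, 0.364, 0.358 and 0.387 in Ctrl and 0.307, 0.311, 0.35 and 0.25 in CNP-Cdk7cKO. It also did not overlap (log2 difference -0.30, two-sided exact permutation p = 0.0286, adjusted 0.0571), and without CNP-Cdk7cKO 4 the difference was -0.20. After adjustment neither ratio passed. Neither could, as 0.0571 is the lowest adjusted value possible when only these ratios reach the smallest exact p.

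The remaining ratios overlapped between groups. Itga6 to Itgb4 was 2.13 to 2.76 in Ctrl and 2.32 to 2.62 in CNP-Cdk7cKO (log2 difference 0.03, two-sided exact permutation p = 0.714, adjusted 0.714). Lama4 to Lama2 was 0.89 to 0.923 in Ctrl and 0.917 to 0.93 in CNP-Cdk7cKO (log2 difference 0.03, two-sided exact permutation p = 0.0857, adjusted 0.114). Against the female control alone, Ctrl 1, these 2 differences were 0.20 and 0.00. Those of Drp2 to Prx and Dmd to Utrn were -0.23 and -0.31 against Ctrl 1.

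**Figure D4:**
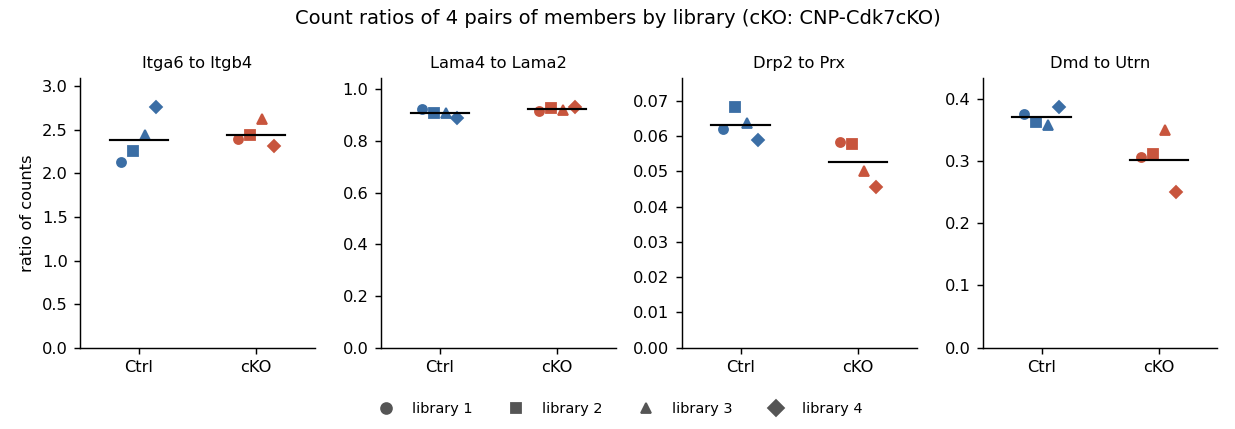
Ratio of counts of 4 pairs of members in each library, with a marker shape for each library number and a line at the geometric mean (4 libraries a group). Drp2 to Prx and Dmd to Utrn do not overlap between groups, and Itga6 to Itgb4 and Lama4 to Lama2 do.

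Genes around these complexes changed in both directions. Of 111 tested genes in 6 lists of partners, enzymes and adaptors, 11 rose and 11 fell, with a median log2 fold change of 0.01. Over all genes tested, 5.07% rose and 6.60% fell by the same test, the shares to set beside each list count below. Among 18 other laminin and matrix receptors 4 rose and 1 fell. The fall was in Adgrg6 (-0.47 ± 0.08, adjusted p = 0.00369), an adhesion receptor that binds laminin and is needed to start myelination; it went from 62.62 ± 2.03 to 45.15 ± 5.71 CPM. The rises were in the tetraspanin Cd81 (0.22 ± 0.04), the syndecans Sdc3 (0.25 ± 0.05) and Sdc1 (0.30 ± 0.06), which carry heparan sulfate, and the chondroitin sulfate proteoglycan Cspg4, the last named after its value was seen (0.25 ± 0.05).

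Among 21 other basal lamina proteins 3 rose and 1 fell. Col18a1 and Col15a1, collagens that carry proteoglycan chains, rose by 0.25 ± 0.05 and 0.22 ± 0.06 on the log2 scale, with control means of 345.3 ± 20.6 and 1155 ± 52.3 CPM and knockout means of 411.7 ± 8.39 and 1344 ± 125 CPM. Col4a6, an X-linked chain of collagen IV, went from 2.07 ± 0.213 to 3.311 ± 0.477 CPM, and Frem1, a matrix protein of epithelial basement membranes, fell from 33.53 ± 2.92 to 25.73 ± 2.49 CPM. Col15a1 passed at an adjusted p of 0.0465 and lost its call without any 1 library other than CNP-Cdk7cKO 3 and 4 (adjusted p up to 0.135), and Col4a6 lost its call without Ctrl 2, 3 or 4 or CNP-Cdk7cKO 1, 2 or 4 (adjusted p up to 0.0755).

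Of 30 integrin adaptors and focal adhesion genes 2 rose and 1 fell. Src, the kinase activated at integrin contacts, rose from 38.83 ± 2.85 to 52.47 ± 3.06 CPM (log2 fold change 0.43 ± 0.06, adjusted p = 0.00204), and the adaptor Zyx rose by less (0.22 ± 0.04). Vcl, which ties adhesions to actin, fell (-0.24 ± 0.06, adjusted p = 0.0208), and its call was lost without Ctrl 2, Ctrl 3 or CNP-Cdk7cKO 2 (adjusted p = 0.0532, 0.0621 and 0.0605). The 10 tested laminin and integrin chains outside the members gave 0 rises and 0 falls by edgeR, DESeq2 and limma-voom, with 1 higher at an unadjusted p under 0.05; the most abundant were Itgb2 and Itga2b, at 8.252 and 8.211 CPM in the controls and 8.322 and 8.198 CPM in the knockouts.

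Dystroglycan binds laminin through sugars added by a chain of enzymes, and in that list 1 of 17 tested genes rose and 2 fell. Ispd, which makes the ribitol donor, fell from 26.99 ± 1.18 to 22.39 ± 0.75 CPM (log2 fold change -0.27 ± 0.05, adjusted p = 0.0094). Dpm1, a dolichol phosphate mannose synthase subunit, rose (0.28 ± 0.07, adjusted p = 0.0203). Ispd passed whichever library was left out. Dpm1 did not pass without Ctrl 1, Ctrl 2 or CNP-Cdk7cKO 3 (adjusted p = 0.0519, 0.0612 and 0.0524).

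Of 15 tested partners of the dystrophin complex outside the members, 6 fell and 1 rose. The ankyrin gene Ank3 fell from 102.2 ± 3.44 to 83.71 ± 5.89 CPM (-0.29 ± 0.06, adjusted p = 0.00766). Ezr, which links membrane proteins to actin, rose (0.20 ± 0.04, adjusted p = 0.00851). Sspn, Sgca and Ahnak also fell and are named after their values were seen; each lost its call when at least 1 library was left out. Sgca, a sarcoglycan of striated muscle, measured 0.735, 1.96, 2.16 and 7.27 CPM in the controls and at most 0.967 CPM in the knockouts, and was highest in Ctrl 4, where the muscle markers were highest. Its log2 fold change went from -2.72 to -0.24 (adjusted p = 0.879) with those markers as a covariate. The part of muscle in the fall of Sgca was not tested. With Xist as a covariate 0 genes of the 6 lists passed, and with the muscle markers 0 rose and 2 fell.

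The members that fell were long genes. Their genomic span ran from 99 kb (Itga2) to 2257 kb (Dmd), with a median of 245 kb, against 72.9 kb for the other 33 tested members and 22.1 kb for all tested genes. Of the 17 tested members that span at least 100 kb 6 fell, and of the 23 shorter ones 1 did. Among all tested genes of at least 100 kb, 12.8% were called lower and 3.64% higher, and of those under 10 kb 4.27% and 5.83%. Without CNP-Cdk7cKO 4 the share called lower was 9.77% and 3.46% in these classes. Among the long members not called, Lama2 (640 kb), Sgcd (1093 kb) and Itga9 (294 kb) had log2 fold changes of 0.11, 0.03 and -0.02. The part of gene span in the falls was not tested.

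Transcript length also moved with the libraries. Over 1382 tested genes with at least 10 kb of merged exons, the median deviation from the gene's mean over libraries was 0.024 to 0.045 log2 units in Ctrl, -0.008 to 0.005 in CNP-Cdk7cKO 1 to 3 and -0.123 in CNP-Cdk7cKO 4. Of the called members, Dmd, Utrn and Dtna have merged exons longer than that. The part of transcript length in their falls was not tested, and without CNP-Cdk7cKO 4 their log2 fold changes were -0.37, -0.17 and -0.60, all called.

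**Figure D5:**
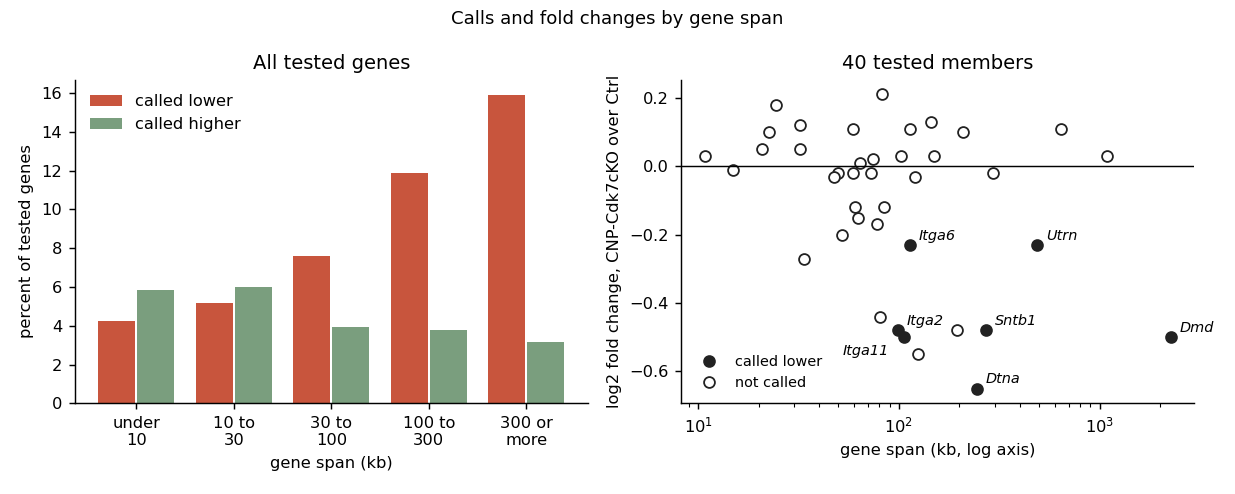
Left, percent of all tested genes called lower or higher in CNP-Cdk7cKO by gene span, from 4.27% lower under 10 kb to 15.9% lower at 300 kb or more. Right, log2 fold change of the 40 tested members against gene span in kb on a log axis, with called members filled and named.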

How the data were processed

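RNA of 8 sciatic nerve libraries was compared, grouped by the genotype in the labels (4 Ctrl, 4 CNP-Cdk7cKO). The authors deposited 1 table of estimated counts per gene; the submitters' processing notes name STAR, Salmon and the GRCm38 build, without settings. Of the values 8.29% were not whole and were rounded. Genes passing filterByExpr (minimum count 10, total 15) were tested with edgeR 4.0.16 (R 4.3.3), TMM scaling and the quasi-likelihood F test without covariates, with Benjamini-Hochberg adjustment over all 15056 genes and a threshold of 0.05. CPM are TMM-scaled, and levels between genes use merged exon lengths from GENCODE M21. Ratios were tested by exact permutation with scipy 1.17.1. The code was checked on simulated data. Alternatives were RLE scaling, TMM factors from genes other than muscle, blood, fat and mitochondrial ones, other count filters, DESeq2 1.42.0, limma-voom (limma 3.58.1), a replicate block, muscle or Xist covariates, female libraries only, and leaving out each library. The text names Cdk7, the 41 members and, from each list, up to 4 called genes with the smallest p, or the 2 most abundant where none was called. The members and lists were chosen with earlier results of these data known. Depth was 16897242 to 21527891 counts, so genes with few counts, such as Itga8, are measured least precisely. Some genes of the lists are counted but not reported here by name.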

Additional observations from a re-analysis of the deposited data

Results flagged for a closer look

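In 4 of the 88 groups of 4 libraries examined (40 tested members and the 4 ratios, in each genotype), 1 library lay far from the others by Dixon's criterion; chance alone gives about 1 in 20. Lama4 measured 523 CPM in Ctrl 1, against 494 to 497 CPM in the other controls. Itgb8 measured 84.1 CPM in CNP-Cdk7cKO 4, against 179 to 192 CPM in the other knockout libraries. Utrn measured 404 CPM in CNP-Cdk7cKO 4, against 480 to 492 CPM. Sgce measured 70 CPM in CNP-Cdk7cKO 1, against 72.5 to 72.8 CPM, a small gap in a tight group.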

How the results depend on the processing

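The 7 called members kept their sign under every alternative run, which their separated groups largely fixed in advance outside the covariate fits. Values that were not called did turn: the ratio of Itga6 to Itgb4 without Ctrl 1 (-0.02), and, with Xist as a covariate, Dtnb (0.10 to -0.21), Itga8 (-0.48 to 0.07), Prx (0.05 to -0.05) and Sgcd (0.03 to -0.30) among others. The count of members called higher, 0 in the full comparison, was 1 with a filter of at least 1 CPM in 4 libraries, 1 with DESeq2, 3 with limma-voom and 0 to 1 when a library was left out. The 7 members called lower became 1 with the muscle covariate, 2 with the Xist covariate, 1 among the female libraries and 4 to 7 when a library was left out (4 without Ctrl 2). For the lists of partner genes, 11 higher became 0 with the muscle covariate, 0 with Xist and 0 among the female libraries, and 8 to 10 when a library was left out. Their 11 lower calls became 2, 0 and 0 under those settings, and 6 to 9 when a library was left out (7 without Ctrl 3, 7 without CNP-Cdk7cKO 2 and 6 without CNP-Cdk7cKO 4). Over all genes, 763 higher and 994 lower became 145 and 204 with the muscle covariate, 76 and 167 with Xist and 37 and 77 among the female libraries; the cause was not tested, and the latter fit rests on 1 control. Without Ctrl 2 they were 470 and 653, and without Ctrl 3 500 and 708. Among the female libraries the log2 difference of the ratio of Itga6 to Itgb4 was 0.20 and that of Lama4 to Lama2 0.00, both 0.03 in the full comparison. When a library was left out, the ratio of Itga6 to Itgb4 gave -0.02 to 0.10, Lama4 to Lama2 0.02 to 0.04, Drp2 to Prx -0.31 to -0.19 and Dmd to Utrn -0.37 to -0.20, where the smallest possible exact p is 0.0571. The replicate numbers did not pair the samples (correlations of same-numbered libraries 0.044, 0.076, 0.127 and 0.009); with the number as a replicate block, 1 member was called higher and 9 lower. The share of genes of at least 100 kb called lower without CNP-Cdk7cKO 4 was chosen after seeing the data.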

Other observations

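CNP-Cdk7cKO 4 held the lowest knockout value for 17 of the 40 tested members (42.5%), against 30.2% of all tested genes. CNP-Cdk7cKO 3 held it for 13 members (32.5%, against 22.4% of all genes), CNP-Cdk7cKO 2 for 8 (20%, against 24.4%) and CNP-Cdk7cKO 1 for 2 (5%, against 23%).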
